A study of Mus musculus with 48 samples.

Results

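The transcriptome of the dentate gyrus (DG), the hippocampal region that receives the main cortical input, was compared between mice that carry amyloid transgenes and mice that do not, in both cases with little Fmn2 mRNA. The amyloid group holds the 9 mice of the Fmn2 and APPPS1-21 cross whose titles carry the letter K, here called K mice. The control group holds the 5 mice titled 3moFmn2ko, here called knock-out controls. Together these are 14 of the 46 mice of the series and 15 of its 48 sequencing runs, because K replicate 7 was sequenced on 2 lanes and its runs were summed. All 14 mice were 3 months old and of the C57BL/6J strain. The K mice are labelled FMN2 +/+ with APP and the knock-out controls FMN2 knock out, whose Fmn2 disruption is constitutive. APPPS1-21 mice express mutated human APP from the Thy1 promoter, which is active in neurons, so the amyloid in this model has a neuronal source.

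4 further groups of mice were used where they bear on this comparison. The 7 W mice of the same cross (3 months, labelled FMN2-/-_APP) and the 5 wild-type controls (3 months, titled 3moFmn2wt) give the most similar contrast, with high Fmn2 counts. The 6 C mice (labelled APP) and the 6 D mice (labelled wild type), all 4 months old, are the pair of amyloid and control mice that belongs to 1 experiment, but all C libraries were sequenced on lane 7 and all D libraries on lane 5, so amyloid and lane cannot be told apart in that pair. All of them are C57BL/6J mice whose source is given as the DG. The K mice and the knock-out controls come from 2 experiments, so amyloid and experiment cannot be told apart in any gene of the comparison.

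Amyloid plaques are deposits of the Aβ peptide, which the proteases BACE1 and γ-secretase cut from the amyloid precursor protein. Microglia, the resident macrophages of the brain, gather around plaques. There they lower genes of their resting state and switch on a set that includes Trem2, Tyrobp, Cst7, Itgax, Clec7a and Lpl, while nearby astrocytes raise Gfap and other genes of a reactive state. FMN2 is a formin, a protein that starts and elongates actin filaments, and is made mainly by neurons.

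**Figure D1:**
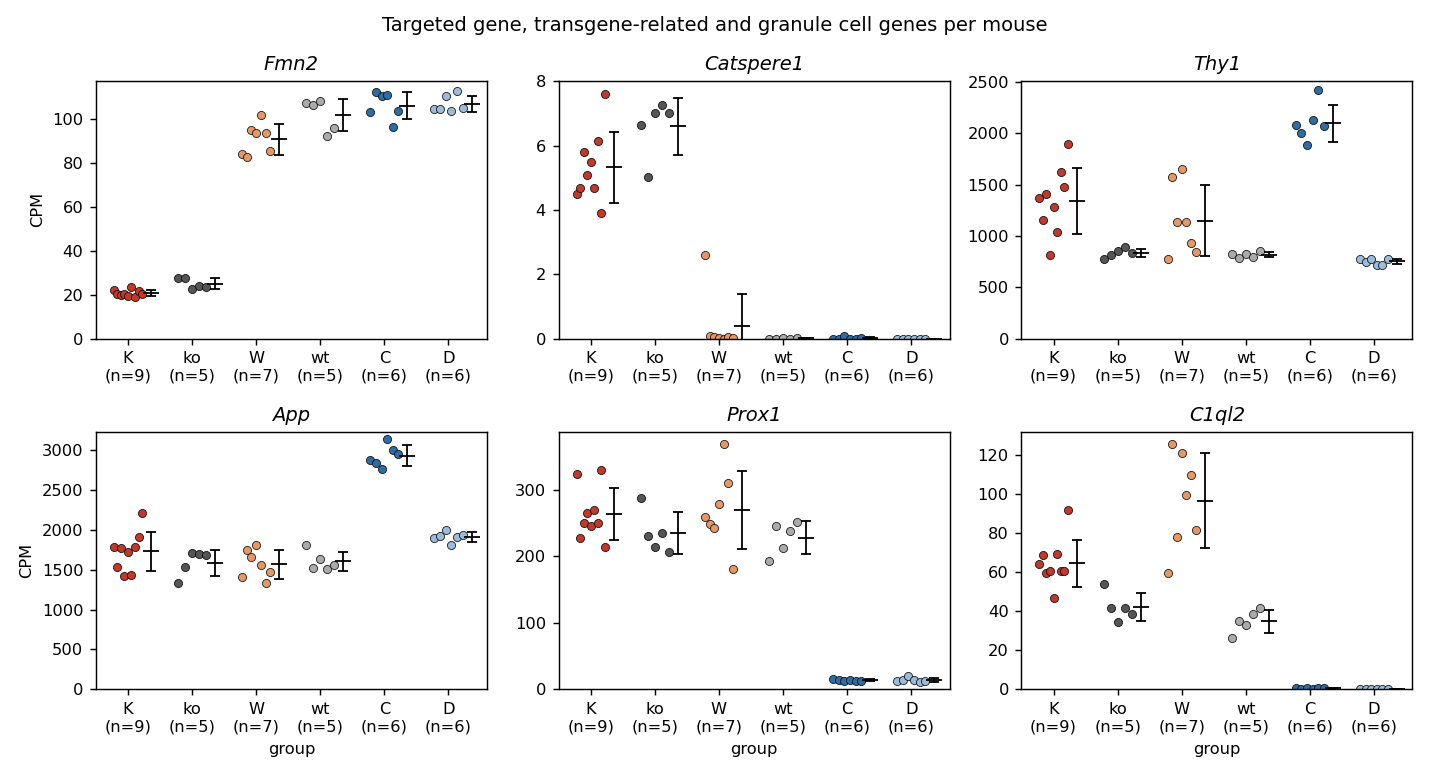
Normalized counts (CPM) of Fmn2, of its chromosome 1 neighbour Catspere1, of Thy1 and App, which relate to the transgenes, and of the granule cell genes Prox1 and C1ql2 in each mouse (points) of 6 groups, with the group mean and SD (bar and whiskers). Fmn2 lies at 27.6 CPM or below in K mice and knock-out controls and at 82.7 or above in W mice, and Prox1 and C1ql2 are near 0 in C and D mice.

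The mice were selected on their Fmn2 counts, which are therefore given as a description. CPM scale the reads of a gene to a common normalized library size, computed within K mice and knock-out controls, within W mice and wild-type controls, and within C and D mice, so levels set across these pairs are on separately normalized scales. Fmn2 ranged from 19.1 to 23.5 CPM in K mice (median 20.3) and was 27.6, 27.6, 22.4, 23.8 and 23.4 CPM in knock-out replicates 1, 2, 4, 5 and 6. The nearest mouse outside was a W mouse at 82.7 CPM. The Fmn2 level of the K mice thus goes against their label FMN2 +/+, and that of the W mice against FMN2-/-, so the mice are called here by their title letters. Catspere1, a neighbour of Fmn2 on chromosome 1 that was not used to choose the mice, lay between 3.9 and 7.6 CPM in K mice and between 5.04 and 7.28 in knock-out controls, and between 0 and 2.61 in W mice.

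The labels were also checked against sex-linked reads and tissue markers. K replicates 1, 3, 6, 8 and 9 held between 14950 and 37558 reads of Xist, the RNA of the inactive X chromosome, and at most 4 reads of the Y-linked Ddx3y. K replicates 2, 4, 5 and 7 and all 5 knock-out controls showed the reverse. W replicates 1, 3, 6 and 7 likewise had 895 to 1250 CPM of Xist and at most 0.316 CPM of Ddx3y, whereas the other 3 W mice, the wild-type controls and the C and D mice had Y-linked reads. The study describes male mice. Sex thus differs between the groups in the K and in the W comparison. Counts and lost calls with the 4 K mice with Y-linked reads alone are given beside many of the results. Genes called in that subset alone are not all named, but enter the counts given for it. The granule cell transcription factor Prox1 was present in K mice (214 to 331 CPM) and knock-out controls (207 to 289 CPM). In C and D mice Prox1 was at most 20.6 CPM and C1ql2, a protein that granule cells release at their synapses, at most 0.734 CPM, against 47 or above in K mice. The C and D libraries therefore go against a DG source, and their titles carry the letters PFC. Ttr, a gene of the choroid plexus, was 8960, 5877 and 347 CPM in K replicates 4, 5 and 7 and 4025 CPM in knock-out replicate 4, and at most 62.9 CPM in the other 10 mice. K replicates 4, 5 and 7 also have Y-linked reads, so sex and choroid plexus content largely coincide in the subset with Y-linked reads. Leaving out the libraries high in Ttr (over 100 CPM) keeps K replicates 1, 2, 3, 6, 8 and 9, of which replicate 2 alone has Y-linked reads.

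The libraries held from 17756946 to 39403392 counted reads in K mice and from 26253666 to 42177775 in knock-out controls. Of 17020 genes tested with edgeR's quasi-likelihood test, 1840 (10.8%) passed both limits, a Benjamini-Hochberg adjusted p under 0.05 and a log2 fold change of 0.5 or more in either direction, which is what "called", "rose" and "fell" mean in what follows. 1017 genes (5.98%) were higher and 823 (4.84%) lower in K mice, and the median log2 fold change of all tested genes was 0.02. With the 4 K mice with Y-linked reads alone 1680 genes were called, and with sex as a covariate 1495. In 859 genes (5.05%) every K mouse was above every knock-out control, and in 896 (5.26%) every K mouse was below. In the comparison of W mice with wild-type controls, which come from the same 2 experiments, 2767 of 16592 genes (16.7%) were called, 9.31% higher and 7.37% lower in W mice. In 11.7% every W mouse was above every control, and in 9.83% every W mouse was below. Between C and D mice it was 385 of 16733 (2.3%), of which 363 were higher in C mice (2.17%) and 22 lower (0.131%).

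Thy1 and App are the mouse genes related to the transgenes that are described here. Thy1, whose promoter drives the transgenes, had 816 CPM in the lowest K mouse, a median of 1374 and a highest value of 1893, and 780, 816, 855, 891 and 835 CPM in the knock-out controls. In 8 of 9 K mice it was above every control, and it rose by 0.68 on the log2 scale (SE 0.15, adjusted p = 0.00318, edgeR). App, the amyloid precursor protein, was 1422 to 2208 CPM (median 1777) against 1328, 1529, 1712, 1695 and 1684 CPM, a log2 fold change of 0.12 (SE 0.099, adjusted p = 0.384), and did not pass the test. In C against D mice both Thy1 (1.48) and App (0.61) rose on the log2 scale. K replicate 4, a mouse with Y-linked reads, had the lowest Thy1 and App of the K mice, and its Thy1 lay within the range of the controls.

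A list of 29 genes that microglia switch on around plaques was the first group examined. Of its 27 tested members 11 rose and 1, Lpl, fell, with a median log2 fold change of 0.61. 5 members were above every control in every K mouse. In the 4 K mice with Y-linked reads 7 of 24 tested members rose and Lpl fell, and with sex as a covariate it was 6 and 1. Without the libraries high in Ttr 11 of 27 rose and 1 fell, with a median of 0.85. In W against wild-type mice 5 of 22 rose and 1 fell, and in C against D mice 19 of 27 rose and none fell. The summed level of the list overlapped, at 2588 to 3161 CPM in K mice and 2791 to 3160 CPM in knock-out controls, and Apoe, which astrocytes also express, held 864 to 1515 CPM of it in K mice. In bulk tissue, a change in the number of cells of a type and a change in the RNA of each cell cannot be told apart.

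Cst7, an inhibitor of lysosomal cysteine proteases, had 0.0393 CPM in the lowest K mouse, a median of 2.34 and 12.4 CPM in replicate 8. The knock-out controls had 0.0624, 0.0793, 0.0369, 0.0283 and 0.0969 CPM, which is 1 to 4 reads per mouse against 1 to 290 in K mice. In 7 of 9 K mice its CPM was above every control, while replicates 4 and 6 held 2 reads and 1 read. Replicate 2, counted among the 7, held 3 reads, fewer than the 4 of knock-out replicate 6, and so lay near the control level. Its log2 fold change was 5.55 (SE 1.46, adjusted p = 0.0116, edgeR), and 4.04 with sex as a covariate, which did not pass (adjusted p = 0.0652). Clec7a, the pattern receptor dectin, ranged from 0.595 to 6.0 CPM (median 2.42) against 0.219, 0.436, 0.147, 0 and 0 CPM, so that every K mouse was above every control. It rose by 4.05 on the log2 scale (SE 0.85, adjusted p = 0.00275), and by 3.20 in the mice with Y-linked reads (adjusted p = 0.0195). Itgax, the integrin CD11c, was 0.223 to 7.5 CPM (median 2.96) against 0.593, 0.198, 0.111, 0.311 and 0.364 CPM and lay above every control in 5 of 9 mice. Its log2 fold change of 2.83 (SE 0.89, adjusted p = 0.0275) became 1.77 with Y-linked mice alone (adjusted p = 0.163), and it lost its call when any 1 of knock-out replicates 2, 4, 5 and 6 was left out.

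The chemokine Ccl6 gave a clearer separation. It ranged from 2.3 to 7.09 CPM in K mice (median 4.03), while the knock-out controls had 1.16, 0.714, 0.664, 0.651 and 0.582 CPM. The groups did not overlap, and Ccl6 rose by 2.58 on the log2 scale (SE 0.32, adjusted p = 3.49e-05, edgeR). The tetraspanin Cd63, which sits in late endosomes, was 34.6 to 56.6 CPM (median 40.5) against 18, 23.2, 19.6, 14.4 and 19.3 CPM, a rise of 1.16 (SE 0.12, adjusted p = 1.15e-05). Tyrobp, the signalling adaptor of TREM2, was 16 to 38.3 CPM (median 29.5) against 11.6, 14.2, 10.4, 11.4 and 10.9 CPM, a rise of 1.14 (SE 0.20, adjusted p = 0.000704). Trem2 itself, the lipid receptor, ranged from 11.7 to 29.8 CPM (median 18.8) against 12.1, 10.7, 8.07, 10.3 and 10.7 CPM. It rose by 0.84 (SE 0.20, adjusted p = 0.00578), with 8 of 9 K mice above every control, and missed the threshold with sex as a covariate (0.59, adjusted p = 0.0640). The lysozyme Lyz2 (1.88), the adhesion receptor Cd84 (1.70), the surface glycopeptide Cd52 (1.16) and osteopontin, Spp1 (1.91), rose on the log2 scale as well. Spp1 was near the threshold (adjusted p = 0.0496), and Cd52 and Spp1 did not pass among the mice with Y-linked reads.

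Lpl, a lipase that microglia and neurons both express, went the other way. It was 59.3 to 121 CPM in K mice (median 89.3) and 127, 130, 202, 216 and 183 CPM in the knock-out controls, without overlap, and fell by 0.91 on the log2 scale (SE 0.16, adjusted p = 0.000781, edgeR). In C mice it was higher than in D mice by 0.79 (adjusted p = 0.00308), and in W mice it was lower than in wild-type controls by 1.19 (log2 fold change -1.19). Apoe, which carries lipids between cells, was 864 to 1515 CPM (median 1363) against 1730, 1673, 1550, 1323 and 1584 CPM and did not pass (log2 fold change -0.26, adjusted p = 0.0667). Ctsd, the aspartic protease of the lysosome, was 181 to 275 CPM against 138 to 182 CPM, with a log2 fold change of 0.50 just under the size limit (adjusted p = 0.00164), and Axl (0.21), Ctsb (-0.01), Cd68 (0.42) and Gpnmb (0.61) were not called.

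**Figure D2:**
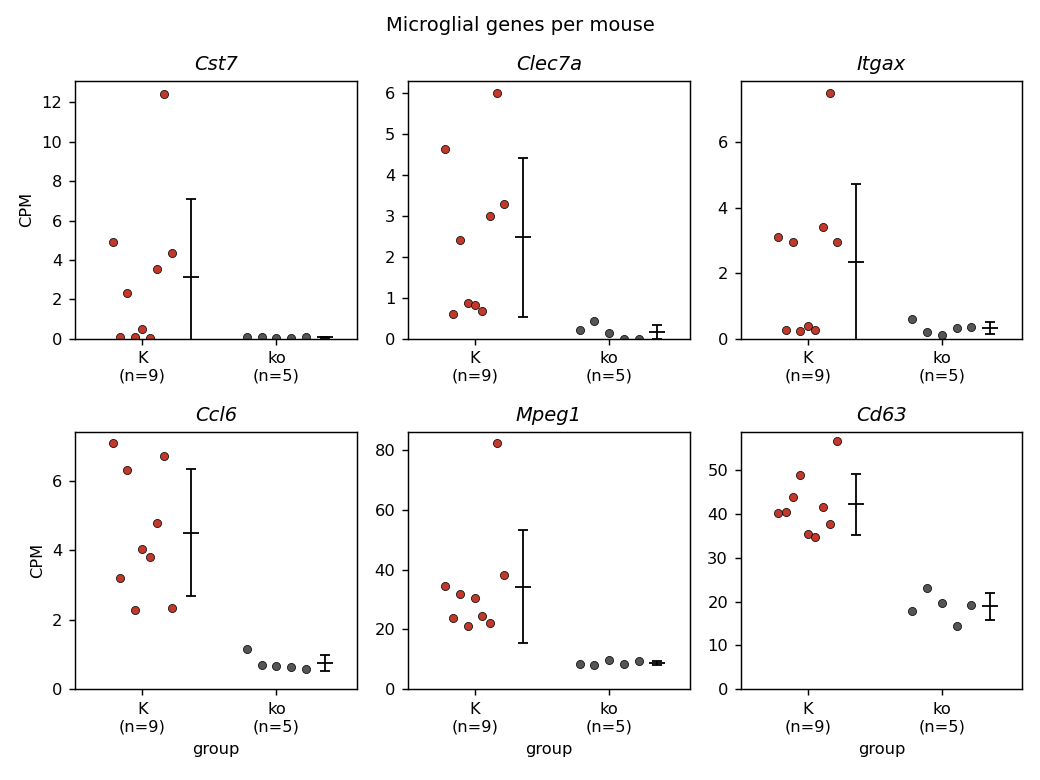
CPM of 6 microglial genes in each K mouse and each knock-out control (points; mean and SD as bar and whiskers, linear axes from 0). Whiskers that would pass below 0 end at the axis. Ccl6, Mpeg1, Cd63 and Clec7a do not overlap between the groups, whereas Cst7 and Itgax reach down to the control level in some K mice.

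The members of this group did not move evenly over the K mice. All 11 members that rose were above every control in replicates 1, 3, 7, 8 and 9, against 8 in replicates 2 and 4, 7 in replicate 5 and 6 in replicate 6. Of the 5, replicates 1, 3, 8 and 9 had high Xist and replicate 7 had Y-linked reads, and replicate 6 had high Xist. The part of sex and of transgene level in this pattern was not tested.

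The 250 bases upstream of the start of the 4 members with the largest rises are shown because these genes rose together and because microglial genes are known to be bound by Spi1, an ETS family factor. The sequences are from RefSeq on GRCm38.p6, on the strand of the gene, and capitals mark GGAAGT, a short form of the purine-rich ETS motif, or its reverse complement ACTTCC. They are Cst7 at chr2:150570165-150570414 (plus strand), Clec7a at chr6:129472780-129473029 (minus strand, the first of 2 entries), Itgax at chr7:128129300-128129549 (plus strand) and Ccl6 at chr11:83593088-83593337 (minus strand).
Cst7: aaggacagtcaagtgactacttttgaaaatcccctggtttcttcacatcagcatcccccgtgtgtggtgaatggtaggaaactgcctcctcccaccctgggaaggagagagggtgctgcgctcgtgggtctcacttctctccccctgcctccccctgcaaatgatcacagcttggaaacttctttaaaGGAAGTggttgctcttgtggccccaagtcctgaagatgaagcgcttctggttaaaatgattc
Clec7a: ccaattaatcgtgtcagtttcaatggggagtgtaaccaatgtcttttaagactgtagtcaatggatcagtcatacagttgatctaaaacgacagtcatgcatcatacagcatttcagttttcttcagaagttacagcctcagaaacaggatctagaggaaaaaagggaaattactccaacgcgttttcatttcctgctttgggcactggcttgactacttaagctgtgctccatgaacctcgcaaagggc
Itgax: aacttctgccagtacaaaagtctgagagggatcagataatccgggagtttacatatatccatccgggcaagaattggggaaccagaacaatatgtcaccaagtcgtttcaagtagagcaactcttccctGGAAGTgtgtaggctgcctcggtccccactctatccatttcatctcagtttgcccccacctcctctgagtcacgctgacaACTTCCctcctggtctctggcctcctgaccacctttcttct
Ccl6: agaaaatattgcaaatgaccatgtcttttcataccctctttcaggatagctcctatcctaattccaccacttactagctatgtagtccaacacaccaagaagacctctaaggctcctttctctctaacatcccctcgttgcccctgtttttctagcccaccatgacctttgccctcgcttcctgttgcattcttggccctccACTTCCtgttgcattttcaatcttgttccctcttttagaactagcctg
The Cst7 window holds GGAAGT 1 time, the Itgax window holds it 1 time and ACTTCC 1 time, and the Ccl6 window holds ACTTCC 1 time. These letters do not occur in the Clec7a window. Of 27025 genes with an entry, 5401 (20%) hold the motif on either strand in the same 250 bases, and of 22 list members with an entry 7 (31.8%) do. A match describes the letters and not a bound site.

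Genes of resting microglia were the next list. Of 15 tested members 5 rose and none fell, with a median log2 fold change of 0.26, and 4 rose among the mice with Y-linked reads. Fcrls, an Fc receptor-like protein, was 4.29 to 23.9 CPM (median 13) against 2.65, 4.96, 2.21, 2.66 and 2.5 CPM and rose by 2.19 on the log2 scale (SE 0.43, adjusted p = 0.00167, edgeR). Aif1, the actin-binding protein IBA1, rose by 0.69 and the lectin Siglech by 0.60, both without overlap, and Olfml3 by 0.58. Siglech (0.49) and Olfml3 (0.31) were under the size limit or did not pass among the mice with Y-linked reads. The receptors that define resting microglia did not rise. The purinergic receptor P2ry12 was 32 to 61.7 CPM (median 53.5) against 73.5, 71.6, 63.6, 65.9 and 53.6 CPM, a log2 fold change of -0.38 that was under the size limit (adjusted p = 0.0379). Cx3cr1, the fractalkine receptor, had a log2 fold change of 0.06, Tmem119 of 0.17 and Csf1r, the receptor for the growth factor of microglia, of 0.26, none of them called. Between C and D mice 11 of the 15 rose, among them P2ry12 (0.53), Cx3cr1 (0.63) and Csf1r (0.75).

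Mpeg1, a pore-forming protein of macrophages, is in neither list. It was 21.3 to 82.4 CPM (median 30.4) against 8.49, 8.17, 9.69, 8.47 and 9.45 CPM and rose by 1.95 on the log2 scale (SE 0.31, adjusted p = 0.000372, edgeR). In C mice it was 94.8 to 129 CPM and in D mice 26.5 to 31 CPM, a rise of 1.98. The fold was thus of like size in both comparisons when all K mice were used. Among the K mice with Y-linked reads, which all C and D mice have, the rise was smaller, at 1.46. The highest value, 82.4 CPM in K replicate 8, stood apart from the other K mice.

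Complement, the protein cascade that tags material for uptake by microglia, had the largest share of members that rose among the lists examined when all 14 mice were used, but not among the mice with Y-linked reads, with sex as a covariate or with replicate numbers blocked. Of 16 tested members 11 rose and none fell, with a median log2 fold change of 0.74. Among the fewer mice with Y-linked reads 4 of 15 rose, and with sex as a covariate 2 of 16, where the plaque-associated genes had 7 of 24 and 6 of 27 and the genes of cytosolic ribosomal proteins 30 of 80 in both. With the replicate number as a block it was 3 of 15. Without the libraries high in Ttr 8 of 16 rose, with a median of 0.77. The 3 chains of C1q, which start the cascade, rose by 0.52 (C1qa), 0.79 (C1qb) and 0.58 (C1qc) on the log2 scale, and had 0.30, 0.45 and 0.32 among the mice with Y-linked reads, where none was called. C1qb was 36.7 to 83.2 CPM (median 62.9) against 36.7, 40.2, 29.2, 30.5 and 33.8 CPM, with 7 of 9 K mice above every control. C4b, which is cut after C1 is active, ranged from 19.1 to 75.6 CPM (median 27) against 15, 18.6, 17.1, 11.9 and 13.9 CPM and rose by 1.10 (SE 0.31, adjusted p = 0.0156, edgeR), without overlap. With sex as a covariate C4b missed the threshold (0.59, adjusted p = 0.171). The receptor C3ar1 (1.08), the integrin chain Itgb2 (0.76) and the membrane inhibitor Cd59a (1.20) also rose, and C3ar1 (0.59) and Itgb2 (0.45) were not called among the mice with Y-linked reads. Between C and D mice 9 of 16 members rose, C1qa, C1qb and C1qc by 1.33, 1.28 and 1.24.

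Genes that present antigen gave a similar median. Of 16 tested members 7 rose and none fell, with a median log2 fold change of 0.73, and 4 rose among the mice with Y-linked reads. The class II chain H2-Ab1 was 1.94 to 10.5 CPM (median 4.64) against 1.56, 3.49, 1.99, 0.510 and 2.06 CPM and rose by 1.39 on the log2 scale (adjusted p = 0.0302, edgeR), with 5 of 9 K mice above every control. It did not pass among the mice with Y-linked reads (0.94, adjusted p = 0.204). Nlrc5, the transcriptional activator of class I genes, rose by 1.12 and the immunoproteasome subunit Psmb9 by 0.86, both without overlap. The invariant chain Cd74 had a log2 fold change of 1.62 that did not pass (adjusted p = 0.0675), and the class I chains H2-D1 (0.22) and H2-K1 (0.46) were not called.

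Of 14 tested Toll-like receptor genes and their partners 5 rose, with a median of 0.39. Cd14, the co-receptor for lipopolysaccharide, was 2.81 to 5.01 CPM (median 4.46) against 1.5, 2.34, 2.21, 2.04 and 1.94 CPM and rose by 1.01 on the log2 scale (SE 0.18, adjusted p = 0.000619, edgeR), without overlap. Ly86, the partner of the receptor CD180, rose by 0.96 with 8 of 9 K mice above every control, and Tlr2 (0.96, adjusted p = 0.0588) did not pass. The other members that rose, Tlr1, Tlr4 and Tlr7, lost their calls among the mice with Y-linked reads. Of 19 tested interferon-response genes 3 rose (Bst2 by 1.01, Ifi27 by 0.83, Ifitm3 by 0.74) and Xaf1 fell by 0.77 on the log2 scale, with a median of 0.34. Among the mice with Y-linked reads 2 of 18 rose, and Ifitm3 was not called (0.40, adjusted p = 0.198, edgeR). Of 11 tested cytokines and chemokines Ccl9, Ccl12 and Cxcl16 rose (Ccl12 not among the mice with Y-linked reads), and Il1b, Il6 and Tnf were too low to be tested. Of 5 tested Fc receptors Fcgr2b rose, and it did not among the mice with Y-linked reads.

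Lysosomal and lipid genes moved little. Of 27 tested lysosomal genes 3 rose and none fell, with a median log2 fold change of 0.17. Among them were the cysteine proteases Ctss (0.60) and Ctsh (0.77). Both proteases lost their calls among the mice with Y-linked reads (0.27 and 0.51), where 1 of the 27 rose. The C mice had 13 of 27 higher than D mice, with a median of 0.50. Of 14 tested genes for lipid efflux and apolipoproteins none was called in K mice against knock-out controls, with Clu at 0.00 and Abca1 at 0.02.

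**Figure D3:**
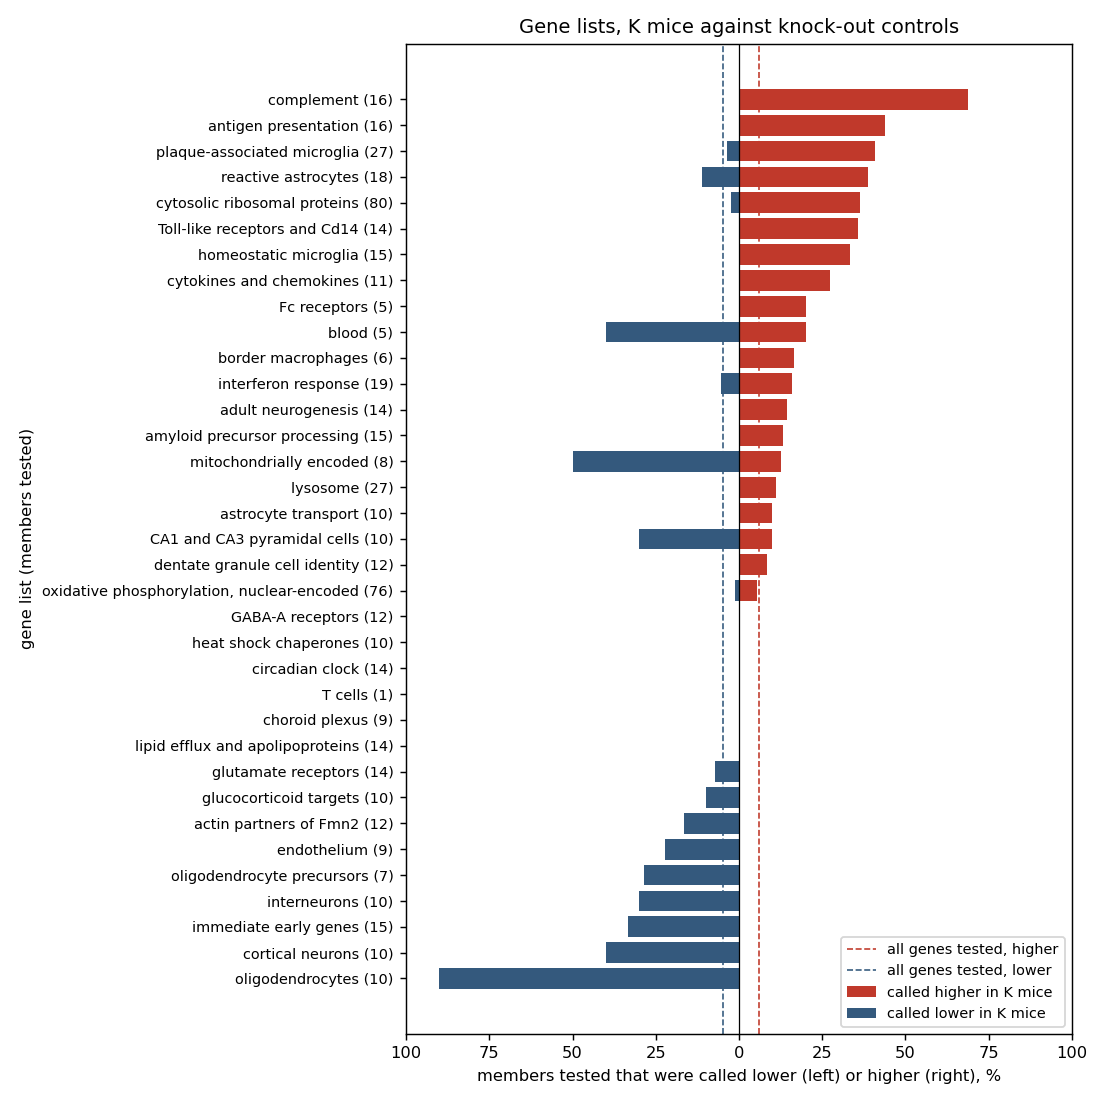
Share of the tested members of each gene list that were called higher (right) or lower (left) in K mice against knock-out controls, in percent, with the number tested in brackets. Dashed lines mark the shares among all genes tested (5.98% higher, 4.84% lower), and in this fit of all 14 mice complement and oligodendrocyte genes lie at the ends of the range.

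Genes of reactive astrocytes gave a mixed picture. Of 18 tested members 7 rose and 2 fell, with a median log2 fold change of 0.70. Among the mice with Y-linked reads 5 of 19 rose and 2 fell, and with sex as a covariate 4 of 18 rose and 2 fell. Gfap, the filament protein of astrocytes, was 607 to 2854 CPM (median 736) against 572, 602, 484, 447 and 480 CPM and rose by 1.08 on the log2 scale (SE 0.35, adjusted p = 0.0303, edgeR), without overlap. The highest value, in replicate 9, stood far above the next at 1418 CPM. Among the mice with Y-linked reads the log2 fold change was 0.41, under the size limit. The hyaluronan receptor Cd44 separated the groups more widely, at 8.4 to 22.7 CPM (median 13) against 3.59, 3.65, 3.47, 3.99 and 3.15 CPM, a rise of 1.93 (SE 0.22, adjusted p = 1.64e-05) that was 2.03 among the mice with Y-linked reads. Tm4sf1 rose by 1.12, the annexin partner S100a10 by 1.06 and the asparaginase Aspg by 1.19, which was not called with sex as a covariate (0.76, adjusted p = 0.164, edgeR). In C against D mice Gfap rose by 2.10, whereas Cd44 (0.60), Tm4sf1 (-0.03), S100a10 (0.11) and Aspg (0.32) were not called. The filament gene Vim (0.41) and the glutamate transporter genes Slc1a2 (-0.27) and Slc1a3 (0.01) were not called, and of 10 astrocyte transport genes the connexin Gjb6 alone rose (0.53). Gjb6 lost its call among the mice with Y-linked reads (0.44, adjusted p = 0.0758, edgeR), and none of the 10 was called there, with sex as a covariate, with the replicate number as a block or without the libraries high in Ttr.

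The 2 members that fell, Serpina3n and Cd109, are protease inhibitors. Serpina3n was 45.3 to 255 CPM in K mice (median 58.6) and 402, 385, 378, 405 and 363 CPM in the knock-out controls, without overlap, and fell by 1.99 on the log2 scale (SE 0.43, adjusted p = 0.00402, edgeR). Its neighbours on chromosome 12, Serpina3m and Serpina3f, fell as well, by 3.91 and 3.50 on the log2 scale. Both lost their calls among the mice with Y-linked reads (log2 fold change -2.89, adjusted p = 0.135, and -2.58, adjusted p = 0.145, edgeR), which include K replicate 7, and with sex as a covariate (adjusted p = 0.0599 and 0.0667). Serpina3m had 307 reads (7.61 CPM) in K replicate 7 and at most 2 reads in the other 8 K mice, against 13.1, 15.4, 15.3, 17.6 and 14.3 CPM in the controls. Serpina3f had 183 reads (4.54 CPM) in the same replicate 7 and at most 3 in the other K mice, against 6.15 to 8.15 CPM. In W mice Serpina3m was 15.2, 7.92 and 7.09 CPM in replicates 1, 2 and 4 and 0 in replicates 3, 5, 6 and 7, and in C and D mice it was at most 0.0588 CPM. No mouse of the cross had a Serpina3m level between 0.112 and 7.09 CPM. The genes are close copies of each other, so the share of reads each receives is uncertain.

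Of 15 tested genes of amyloid precursor processing 2 rose. Bace2, a protease related to BACE1, was 1.46 to 13 CPM (median 6.94) against 0.905, 1.23, 1.25, 1.33 and 0.582 CPM and rose by 2.82 on the log2 scale (SE 0.40, adjusted p = 0.000157, edgeR), without overlap. Psenen, the smallest subunit of γ-secretase, rose by 0.57, from 3.81 to 4.57 CPM in the controls to between 4.67 and 7.54 CPM. Bace1 (log2 fold change -0.03), Adam10 (0.22), Ncstn (-0.01), Aph1a (0.01) and Psen2 (0.07) were not called. Bace2 also rose in W mice, by 2.33, and was not called between C mice (2.47 to 3.69 CPM) and D mice (2.91 to 5.0 CPM).

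**Figure D4:**
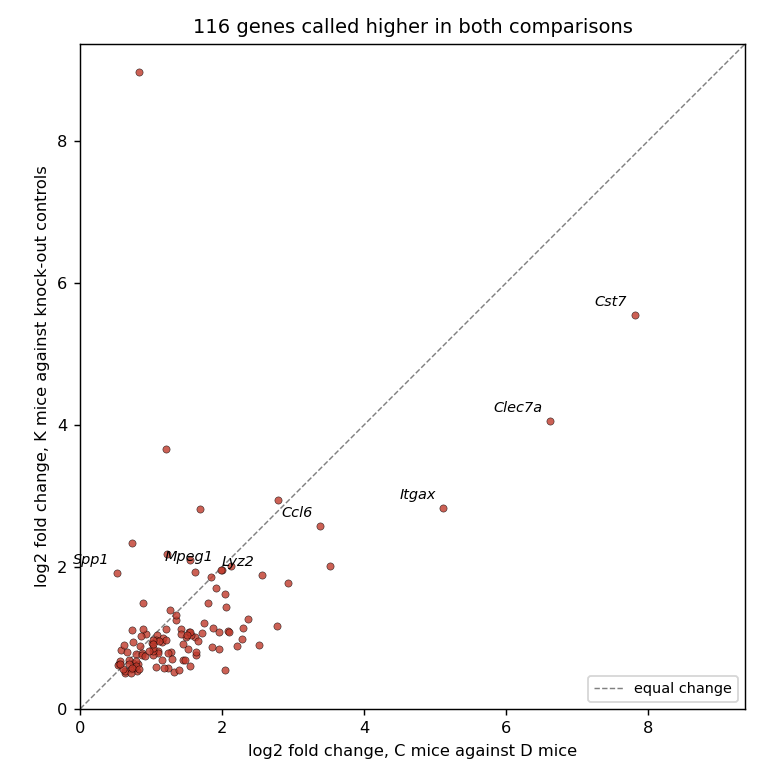
Log2 fold change in C against D mice (horizontal) and in K mice against knock-out controls (vertical) of the 116 genes called higher in both comparisons. The dashed line marks equal change, and 90 of the 116 points lie below it. The point at the upper left is Trim12a, which had no read in any knock-out control, so that its fitted fold is not a measured size.

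The pair of C and D mice shares no mouse with the comparison described here and comes from 1 experiment, though from tissue without granule cell markers, from older mice and with the groups on separate lanes. Of 16072 genes tested in both, 116 (0.722%) were called higher in both, which is 12.6% of the 922 genes higher in K mice and 33.5% of the 346 higher in C mice. That number fell to 52 with the K mice with Y-linked reads alone, to 47 with sex as a covariate and to 54 with the replicate number as a block. Of the 116 genes themselves, 52 were called among the mice with Y-linked reads, where 10 were too low to be tested, and 46 with sex as a covariate. Their median log2 fold change was then 0.70 and 0.75. The gene Nefh was lower in both (0.00622% of genes), and 6 genes (0.0373%) were called in opposite directions (Ifi204, St8sia6, P2ry6, Lpl, Gm9619 and Prkcd), of which Gm9619 lost its call in K mice among those with Y-linked reads. With all mice the medians of the 116 genes were 0.95 in K mice and 1.24 in C mice on the log2 scale, and 90 of them had the smaller value in K mice. Trim12a, named here after its values were seen, had 24 to 117 reads in K mice and 0 in each of the 5 knock-out controls. In 32 of the 116 every K mouse was above every knock-out control, and in the fewest case 5 of the 9 were. 99 of the genes could be tested in W mice against wild-type controls, where 45 rose, with a median of 0.67.

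The 20 genes with the largest rises in both, ordered by the smaller of the 2 folds, were led by Cst7 and Clec7a. Besides these and Itgax, Ccl6, Mpeg1, Lyz2 and Cd84 they were Ifi27l2a, H2-Q6, Gm49339, Cybb, Milr1, Gpr65, Cxcl5, Arl11, H2-Ob, Ccl9, Siglec1, Capg and Naip5. Capg, which caps actin filaments in macrophages, was 2.51 to 6.54 CPM in K mice (median 3.73) against 1.59, 1.71, 1.55, 1.76 and 1.19 CPM and rose by 1.44 on the log2 scale (SE 0.22, adjusted p = 0.000240, edgeR), without overlap. H2-Ob, a regulator of class II loading, rose by 1.92 and the mast cell receptor Milr1 by 1.85, both without overlap. Cybb, the catalytic subunit of the phagocyte oxidase, rose by 1.95 and was above every control in 6 of 9 K mice. It lost its call among the mice with Y-linked reads (1.01, adjusted p = 0.0656), as did Itgax, Cxcl5 and Naip5. Another 7 of the 20 (Cst7, H2-Q6, Gm49339, Milr1, Gpr65, Arl11 and Siglec1) were too low to be tested among these mice, so that 9 of the 20 were called there. With sex as a covariate 10 of the 20 were called, and the 10 that were not were Cst7, Itgax, H2-Q6, Gm49339, Cybb, Gpr65, Cxcl5, Arl11, Siglec1 and Naip5. Nefh, the heavy neurofilament chain of large axons, was 31.4 to 56.6 CPM (median 35.6) against 68.1, 87.9, 75.6, 72 and 76.1 CPM and fell by 1.02 (SE 0.12, adjusted p = 1.64e-05).

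Myelin genes were lower throughout. Of 10 tested oligodendrocyte genes 9 fell and none rose, with a median log2 fold change of -0.89, and 8 fell among the mice with Y-linked reads. Mbp, the myelin basic protein, was 585 to 880 CPM in K mice (median 708) against 1280, 1421, 1683, 1465 and 972 CPM and fell by 0.92 on the log2 scale (SE 0.11, adjusted p = 3.48e-05, edgeR). Mobp, another myelin protein, was 122 to 247 CPM (median 183) against 383, 430, 498, 441 and 264 CPM, a fall of 1.09 (SE 0.17, adjusted p = 0.000251), and Mag fell by 0.87. None of these groups overlapped. The summed level of the list was 1274 to 2062 CPM in K mice and 2031 to 3679 CPM in the controls. Of 7 precursor genes Olig2 and Sox10, the transcription factors of the lineage, both fell by 0.75 without overlap. In W against wild-type mice 5 of the 10 fell, with a median of -0.53, and 2 fell with the 3 W mice with Y-linked reads alone. In C against D mice none of the 10 was called, with a median of -0.76 and a D mouse at 2728 CPM of Mbp.

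**Figure D5:**
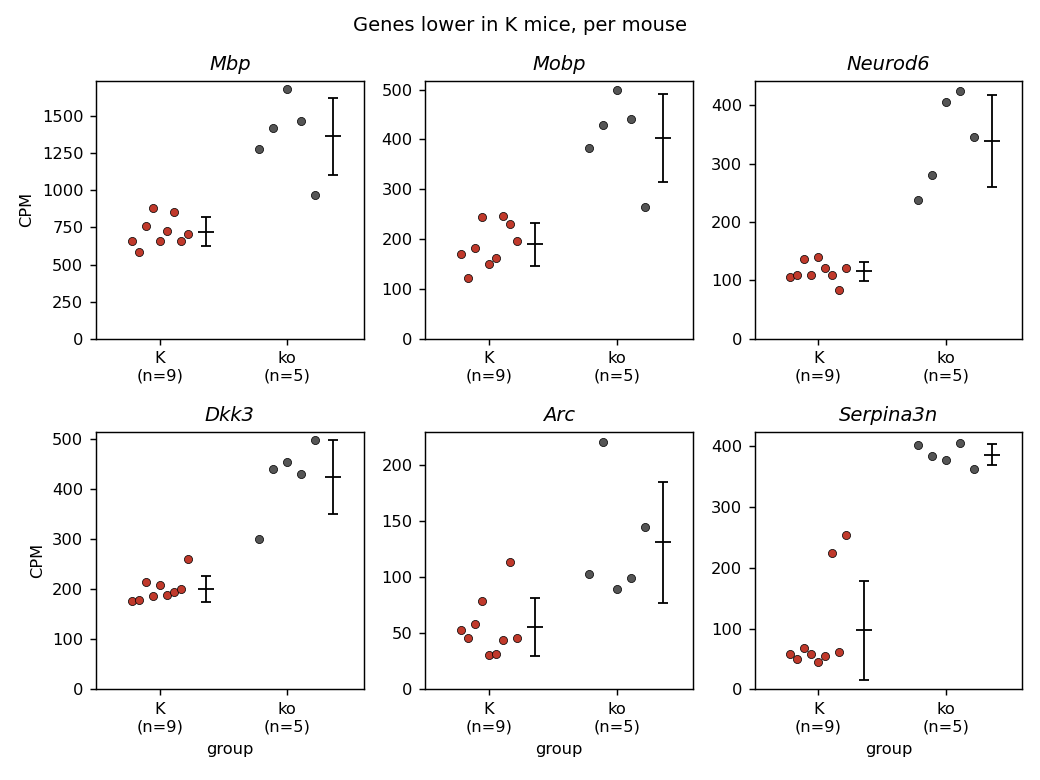
CPM of the myelin genes Mbp and Mobp, the pyramidal cell genes Neurod6 and Dkk3, the activity gene Arc and the protease inhibitor Serpina3n in each K mouse and knock-out control (points; mean and SD as bar and whiskers, linear axes from 0). All but Arc lie lower in every K mouse than in every control.

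Neuronal markers were checked for the dissection. Of 12 granule cell genes C1ql2 alone was called, with 47 to 91.7 CPM (median 60.6) against 54, 41.9, 34.4, 41.8 and 38.8 CPM and a rise of 0.62 on the log2 scale (0.49, under the size limit, among the mice with Y-linked reads). Prox1 was not (0.17, adjusted p = 0.248, edgeR), and the summed level of the list overlapped, at 1485 to 2356 CPM against 1534 to 2095 CPM. Of 10 genes of CA1 and CA3 pyramidal cells 3 fell and 1, Fibcd1, rose (1.04). The other 6 were not called, and the log2 fold change was above 0 in 4 of the 10 and below 0 in 6. Among the mice with Y-linked reads 3 fell and 2 rose, so the members did not move together. The transcription factor Neurod6 was 84.1 to 140 CPM (median 110) against 238, 280, 405, 424 and 345 CPM and fell by 1.56 (SE 0.13, adjusted p = 1.57e-06). The secreted protein Dkk3 was 177 to 260 CPM (median 195) against 300, 440, 455, 430 and 497 CPM and fell by 1.08, and Cpne4 fell by 0.76, all without overlap. The summed level of this list did not overlap, with 786 to 1084 CPM in K mice and 1256 to 1797 CPM in the controls. Of 10 cortical neuron genes Lamp5, Cux2, Tbr1 and Fezf2 fell and none rose, and of 10 interneuron genes Cck, Pvalb and Reln fell. Fezf2 (-0.46) and Reln (-0.44) were under the size limit among the mice with Y-linked reads. There 3 interneuron genes fell, including a member that was not called with all mice. Pvalb, the calcium-binding protein of fast-spiking cells, was 12.9 to 26.1 CPM (median 20.5) against 29.5, 40.8, 31.1, 30.5 and 30.1 CPM, a fall of 0.70. In W against wild-type mice, from the same experiments, Neurod6 (-1.90), Dkk3 (-1.35) and Cpne4 (-0.91) were lower as well, and between C and D mice none of the 3 was called. The part of the dissection in these values was not tested.

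Markers of the other cells that the tissue could hold were mostly not called. Of 9 endothelial genes Flt1 and Ly6c1 fell, and of 9 choroid plexus genes none was called, with a summed level from 128 to 12890 CPM in K mice and from 128 to 5139 CPM in the controls. Of 5 blood genes the haemoglobin genes Hba-a1 and Hba-a2 fell and Hbb-bt rose. Of 6 genes of the macrophages at the brain borders F13a1 rose, which it did not among the mice with Y-linked reads, and the summed level was 7.66 to 29.1 CPM against 5.35 to 18.1 CPM. T cell markers summed to at most 1.72 CPM and neutrophil markers to at most 1.89 CPM in any of the 14 mice. Of 14 genes of adult neurogenesis, by which the DG adds granule cells, the immature neuron gene Igfbpl1 (1.36) and the proliferation gene Top2a (0.52) rose on the log2 scale. Top2a lost its call among the mice with Y-linked reads (0.41, adjusted p = 0.142, edgeR), and also with sex as a covariate, without the libraries high in Ttr and with replicate numbers blocked. Of 10 targets of the glucocorticoid receptor Hif3a fell.

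Genes that neuronal activity switches on were lower in part. Of 15 tested immediate early genes 5 fell and none rose, with a median of -0.60 on the log2 scale, and 2 fell among the mice with Y-linked reads, Arc being the only one of the 5 among them. In W against wild-type mice 11 of the 15 fell, with a median of -1.05, and 11 also with the 3 W mice with Y-linked reads alone. Arc, which is translated at active synapses, was 30.9 to 114 CPM (median 46) against 103.1, 220.5, 89.3, 99 and 145 CPM and fell by 1.24 (SE 0.30, adjusted p = 0.00754, edgeR), with 8 of 9 K mice below every control. Junb, a partner in the AP1 complex, was 8.87 to 24.7 CPM (median 15.4) against 25.5, 28.6, 21.6, 25.2 and 36.1 CPM and fell by 0.84. Npas4, Nr4a1 and Dusp1 fell by 1.11, 0.89 and 0.82, and Fos (log2 fold change -0.94, adjusted p = 0.137) did not pass. Npas4 and Nr4a1 were near the threshold (adjusted p = 0.0329 and 0.0357, edgeR) and both lost their calls when knock-out replicate 1, 2 or 6 was left out, Nr4a1 also without K replicate 1, 2, 3, 7 or 9. Of 14 glutamate receptor genes the NMDA receptor subunit Grin1 fell by 0.53 (log2 fold change -0.49, under the size limit, among the mice with Y-linked reads), and of 12 GABA-A receptor, 14 clock and 10 heat shock genes none was called. Among the mice with Y-linked reads 1 GABA-A receptor gene rose and 1 fell.

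Genes that act with FMN2 on actin were examined because both groups have little Fmn2. Of 12 tested members 2 fell and none rose, with a median of -0.15 on the log2 scale, and 5 were below every control in every K mouse. Fmn1, the closest relative of FMN2 among formins, was 8.0 to 12 CPM (median 10.1) against 15.3, 22.9, 21.1, 20.4 and 20.7 CPM and fell by 1.0 (SE 0.11, adjusted p = 9.65e-06, edgeR). Daam2, a formin that responds to Wnt signals, was 60.7 to 100 CPM (median 73.4) against 141, 121, 113, 106.4 and 115 CPM and fell by 0.65. Spire1, which nucleates actin together with FMN2, was 144 to 169 CPM against 182, 202, 185, 190 and 185 CPM, a log2 fold change of -0.29 that was under the size limit (adjusted p = 0.000529). The filament-severing protein Cfl1 was likewise under the limit (-0.45) and without overlap. Fmn1 was also lower in W than in wild-type mice (-1.63), and none of the 4 genes was called between C and D mice.

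Ribosomal and mitochondrial genes shifted in both pairs from these experiments. Of 80 tested genes of cytosolic ribosomal proteins 29 rose and 2, Rpl28 and Rps26, fell, with a median of 0.37 on the log2 scale, and 30 rose among the mice with Y-linked reads. Rps2, a protein of the small subunit, was 23.5 to 31.2 CPM (median 27) against 12.4, 13.3, 13.3, 13.4 and 14.3 CPM and rose by 1.0 (SE 0.080, adjusted p = 1.08e-06, edgeR). In W against wild-type mice 42 of 81 rose, and between C and D mice none of 80 was called. Processed copies of these genes are common, so their counts are uncertain. Of 8 tested genes on the mitochondrial genome 4 fell, mt-Nd1 from 7724 to 13450 CPM in the controls to between 5129 and 7039 CPM (a fall of 0.76). Among the mice with Y-linked reads 5 of the 8 fell. mt-Nd3 had 8 to 21 reads in each K mouse and none in any knock-out control. Of 76 nuclear genes of oxidative phosphorylation 4 rose and 1 fell, with a median of 0.04. Exon length had a median of 2845 bases among genes that rose and 4002 among genes that fell, against 4100 for all tested genes, and pseudogenes made up 4.92% and 7.05% of them against 2.97% of all.

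Many of the largest changes were in genes outside these lists and recurred in the other pair from the same experiments. Among called genes of at least 5 CPM in the higher group whose groups did not overlap, the 15 largest rises were in Xist, 2900097C17Rik, Bace2, Myo7a, Mpeg1, Cd44, Myoc, Coch, AW551984, Col6a2, Wnt4, Tmc6, C1qtnf12, Glra2 and Cd63. Of these, 13 also rose in W against wild-type mice, a comparison in which sex differs between the groups in the same way. With the 3 W mice with Y-linked reads alone 14 rose there. Xist, one of the 15, is the RNA by which mice were put in sex classes. In the K mice with Y-linked reads it had only 26 to 52 reads, against 2 to 22 in the knock-out controls. Of the 14 tested between C and D mice Mpeg1 alone was called. The noncoding transcript 2900097C17Rik was 9.25 to 24 CPM in K mice (median 18) against 1.19, 1.59, 3.24, 3.28 and 2.23 CPM, a rise of 2.86 on the log2 scale. It was 9.06 to 18.4 CPM in W mice, 1.27 to 2.87 CPM in wild-type controls, 18.1 to 26.6 CPM in C mice and 20.3 to 26.8 CPM in D mice. The D mice differ from the knock-out controls in age, tissue markers and experiment, on a separately normalized scale, and the part of each was not tested. Wnt4, a secreted signal, was 11.8 to 26.6 CPM (median 21.3) against 6.09, 9.0, 10.4, 6.51 and 7.22 CPM (a rise of 1.43), with 19.2 to 40.2 CPM in D mice. Myo7a, an unconventional myosin, rose by 2.17 and was 21.8 to 30.7 CPM in D mice against 1.98 to 5.64 CPM in the knock-out controls. Glra2, a glycine receptor subunit on the X chromosome, rose by 1.21, and its call held among the mice with Y-linked reads.

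The 15 largest falls by the same rule were in Gm28438, Serpina3m, Serpina3f, Gm11814, Klk10, Mrpl48-ps, Serpina3n, Nudc-ps1, Gm1840, Cd109, Rem2, Prss35, Slc17a8, Stbd1 and Hapln4. Serpina3m, Serpina3f and Mrpl48-ps lost their calls among the mice with Y-linked reads. Of the 15, 9 also fell in W against wild-type mice, 9 also with the W mice with Y-linked reads alone, and none of the 8 tested was called between C and D mice. Gm28438, an annotated pseudogene on chromosome 1 (24612775 to 24613119, minus strand, mm10), had 1 to 16 reads in K mice and 728 to 1206 reads in the knock-out controls (19.5 to 37.7 CPM). It was 27.6 to 37.7 CPM in wild-type controls and at most 0.36 CPM in W, C and D mice. The kallikrein Klk10 was 0.0661 to 1.08 CPM (median 0.354) against 4.37, 3.61, 3.32, 6.4 and 8.07 CPM, a fall of 3.29 on the log2 scale, and was at most 0.184 CPM in C and D mice. Hapln4, a link protein of the perineuronal nets around fast-spiking interneurons, was 29.3 to 66.9 CPM (median 48.3) against 93, 118, 176, 188 and 179 CPM, a fall of 1.62 (SE 0.20, adjusted p = 6.4e-05, edgeR). Slc17a8, a vesicular glutamate transporter, fell by 1.67 and Rem2, a GTPase that responds to activity, by 1.72. Over all genes, 1721 of those called in K mice could be tested in W mice, where 1042 were called in the same direction and 3 in the opposite one. The 2 comparisons share no mouse but share both experiments and the imbalance of sex.

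Whether the amyloid contrast differed between mice with low and with high Fmn2 was tested as the difference of the 2 contrasts, K mice minus knock-out controls less W mice minus wild-type controls, in 1 fit. A shift between the experiments that is equal in both pairs drops out of this difference, and a shift that is unequal between the pairs does not. Of 17599 genes tested 32 (0.182%) were called, 6 above (0.0341%) and 26 below 0 (0.148%), against 2302 at an unadjusted p under 0.05. With sex as a covariate the number was also 32, with 5 above and 27 below 0, and how many of these are the same genes was not determined. None of the 116 genes higher both in K and in C mice was among the 32 of the fit without that covariate. With 0.182% of all tested genes called, this count cannot show whether the change of the 116 depends on Fmn2. Rps2 was 26.5 ± 2.74 CPM (SD, n = 9) in K mice against 13.3 ± 0.79 (SD, n = 5), and 49.1 ± 11.3 (SD, n = 7) in W mice against 10.9 ± 0.83 (SD, n = 5), a difference of -1.17 on the log2 scale (SE 0.18, adjusted p = 0.00500, edgeR). The rise of Rps2 over the controls was thus smaller in K mice than in W mice. Tmem119, a surface protein of resting microglia, was 21.4 ± 3.26 against 19.1 ± 1.69 CPM and 26.5 ± 2.07 against 14.9 ± 1.58 CPM (SD, same numbers of mice), a difference of -0.66 (adjusted p = 0.0347, edgeR). It was the single gene of the plaque-associated and resting microglia lists among the 32. Kirrel2, an adhesion protein, was 8.67 ± 2.77 against 19.3 ± 2.22 CPM and 26.6 ± 9.44 against 16.5 ± 2.12 CPM. It was lower in K mice and higher in W mice than in their respective controls, with a difference of -1.83 (adjusted p = 0.0147, edgeR). H2-T22, a nonclassical class I molecule, differed by -1.05 and the lipid transporter Mfsd2a by -0.83, and Fam129a by 1.19 in the other direction. With DESeq2 126 genes were called and with single mice left out between 5 (without wild-type replicate 3) and 49 (without W replicate 1), so the number rests on single mice.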

How the data were processed

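Per the labels and the study's methods, total RNA of the dissected DG was extracted with TRIzol, polyadenylated RNA libraries were made with the TruSeq v2 kit and single reads were sequenced. Alignment by the authors was to mm10, with STAR, and HTSeq assigned reads to Ensembl genes. The deposited values are raw read counts for 48709 genes per run, without normalization. Gene symbols, lengths and GC content were matched for 48349 of these. The 2 runs of a mouse sequenced on 2 lanes were summed. The members and the gene lists were chosen with earlier results of these data known.

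Counts of K mice and knock-out controls were fitted alone with edgeR 4.0.16 in R 4.3.3 (filterByExpr, TMM normalization, quasi-likelihood test), likewise W mice against wild-type controls and C against D mice, and the difference of the first 2 contrasts in 1 fit of their 4 groups. A gene was called at a Benjamini-Hochberg adjusted p under 0.05 with a log2 fold change of 0.5 or more in either direction. All p-values of single genes are from these fits over all genes tested, except where a sentence names another setting. There they are from the fit with that setting, over the genes tested in it. The standard error was taken from the fold change and the F statistic. Labels do not say whether mice share a litter, so p-values measure the spread between these mice. Named genes were those related to the targeted gene and the transgenes, the 15 largest rises and 15 largest falls among called genes of at least 5 CPM without overlap, the 20 largest rises shared with C mice, the 10 largest differences in each direction between the 2 contrasts, and members of the lists. Mice were put in sex classes by Xist and Y-linked reads. The procedure was tested on simulated data. Alternatives were DESeq2 1.42.0 as test or for size factors, no low-count filter, a length and GC correction, a fit of all 4 groups, counts drawn down to equal depth, the lane 7 run alone for K replicate 7, the replicate number as a block and each mouse left out in turn. Chosen after seeing the data were the mice with Y-linked reads alone, sex as a covariate, and leaving out the libraries with over 100 CPM of Ttr. The groups were given the same replicate numbers, but the labels tie them to no litter or day, and the deviations of same-numbered mice correlated between -0.0504 and 0.306 over 5 pairs, so the comparison was not paired. The 8-month groups and all tissues other than those named were not used here. Values of a few members of the gene lists are not reported here, although they enter the counts.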

Additional observations from a re-analysis of the deposited data

Results flagged for a closer look

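In 31 of 220 groups of values a single mouse stood apart from the rest of its group by Dixon's criterion. About 1 in 20 independent groups of normally distributed values meet it. Here it was applied to CPM whose distribution was not tested, and the same mice recur over the genes, so that rate is no yardstick for the 31. K replicate 9 stood apart 10 times, K replicate 8 9 times and knock-out replicate 2 5 times.

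K replicate 8 had the highest CPM of Cst7 (12.4), Itgax (7.50), Cd84 (5.70), Mpeg1 (82.4), Siglech (32.3), Daam2 (100) and Glra2 (30.3) and the lowest of Apoe (864) and Rem2 (2.83). K replicate 9 had the highest C4b (75.6), Gfap (2854), Vim (122), Aspg (13.3), C1ql2 (91.7), Dkk3 (260), Igfbpl1 (7.60), Myoc (17.9), Tmc6 (10.8) and Nefh (56.6). K replicate 7 had 7.61 CPM of Serpina3m and 4.54 CPM of Serpina3f, where the other K mice were near 0. K replicate 1 stood apart in Psmb9 (3.26), K replicate 4 in Opalin (11.6) and K replicate 6 in AW551984 (33.4).

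Among the knock-out controls, replicate 2 stood apart in Catspere1 (5.04), Spp1 (13), Fcrls (4.96), Pvalb (40.8) and Dusp1 (41.1), replicate 1 in Ccl6 (1.16) and replicate 4 in Ttr (4025).

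The difference of the 2 contrasts was called, with all mice and the main settings, in these named genes, given as log2 differences. It was below 0 for Kirrel2 (-1.83), Atp6v0c (-1.50), Rps2 (-1.17), Hmga1 (-1.14), H2-T22 (-1.05), Mthfd2 (-0.88), Mfsd2a (-0.83), Smim3 (-0.78), Tmem119 (-0.66) and Acot11 (-0.65). It was above 0 for Fam129a (1.19), Sntg2 (0.99), Pstpip2 (0.90) and Lactb2 (0.60). None of the genes above 0 was called without the low-count filter or without wild-type replicate 3. In those fits 15 and 5 genes were called, all below 0.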

How the results depend on the processing

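The number of genes called between K mice and knock-out controls (1840) lay between 1541 and 1996 with single mice left out and between 1414 and 1954 under the other alternatives. For W mice against wild-type controls the ranges were 2364 to 2946 and 2446 to 2947, and for C against D mice 353 to 389 and 374 to 457. The number called for the difference of the 2 contrasts (32) was 126 with DESeq2 and 15 without the low-count filter, and between 5 and 49 with single mice left out. The number called higher both in K and in C mice (116) was 54 with the replicate number as a block, 52 with the block and a length and GC correction, 47 with sex as a covariate and 52 with the mice with Y-linked reads alone, and 81 to 130 with single mice left out. The block gave 1746 called genes in the main comparison, and same-numbered mice do not come from a stated pair. The causes of these shifts were not tested, except that the block and the mice with Y-linked reads use fewer mice. Of 189 named genes called, 55 lost their call with sex as a covariate and 44 of 181 with the mice with Y-linked reads alone, 40 of 179 with the block, 27 without the libraries high in Ttr, 23 without the filter and 1 with DESeq2, and none reversed its direction under these settings. Transcripts with few reads, such as Cst7 in the controls, limit the precision of their folds.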

Other observations

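Atp6v0c is the pore subunit of the proton pump that acidifies lysosomes. It was 8.73 CPM on average in K mice, 9.67 in knock-out controls, 23 in W mice and 9.06 in wild-type controls. The mean was thus highest in W mice, but their range of 10.7 to 31.5 CPM overlapped both control groups. Those reached 15.6 CPM in knock-out and 12.5 CPM in wild-type controls, and K mice reached 10.3 CPM. Of the 32 genes called for the difference of the 2 contrasts, 8 lie on chromosome 1, which also carries Fmn2, and 8 on chromosome 17. These are 25% each, against 6.38% and 4.54% of the genes tested. This grouping was chosen after the values were seen and was not tested.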
